A study of Rattus norvegicus with 6 samples.

Results

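The Cyp2b family was followed in the liver of rats fed epsilon-momfluorothrin, a pyrethroid insecticide. Its members were all probe sets whose gene symbol on the array starts with Cyp2b, whatever their brightness or their result. These were 4 probe sets carrying 5 gene symbols (Cyp2b1, Cyp2b2, Cyp2b3, Cyp2b12 and Cyp2b21), out of 31042 probe sets for genes on the array. The samples were livers of 3 male rats on a diet with epsilon-momfluorothrin and of 3 male rats on the control diet, with 1 one-colour Affymetrix array per animal. All animals were BrlHan:WIST@Jcl(GALAS) rats bought at 4 weeks of age, fed powdered diet for 2 weeks of treatment and 7 weeks old at sampling. The dose is given as 3000 ppm in the sample titles and as 5000 ppm in the sample characteristics, so it is not settled here. The 2 groups differed in diet alone, per the labels, and no allele or transgene was involved.

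Cyp2b enzymes are cytochrome P450s of the endoplasmic reticulum that oxidise drugs, pesticides and steroids. In rodent liver the genes for Cyp2b1 and Cyp2b2 are the textbook targets of the nuclear receptor CAR (constitutive androstane receptor, gene Nr1i3), which moves into the nucleus after exposure to phenobarbital-like compounds and binds a distal enhancer as a partner of the retinoid X receptor. Pyrethroids are among the compounds known to activate CAR in rat liver, and induction of Cyp2b is the usual marker of that activation. A related receptor, PXR (gene Nr1i2), is best known for its control of Cyp3a genes and shares many targets with CAR.

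RefSeq lists 8 Cyp2b genes in the rat assembly GRCr8, of which 5 have a probe set here. They lie in a run of 18 protein-coding genes from Cyp2s1 to Cyp2t1 that holds 15 P450 genes, with Cyp2b1, Cyp2b2 and Cyp2b3 near its start and Cyp2b21 and Cyp2b12 farther in. The start regions of the first 3 are shown because their probe sets gave the bright signals described below. Each window runs from 250 bases before to 50 bases after the gene start, on the + strand of GRCr8, from RefSeq. The Cyp2b1 window is chr1:90645869-90646168, the Cyp2b2 window chr1:90722031-90722330 and the Cyp2b3 window chr1:90780242-90780541. Capitals mark every match, on either strand, to TTGCATAA, a sequence like the binding site of the liver factor C/EBP, and to ATAAAAG, which resembles the core promoter box before many gene starts. The 2 motifs did not overlap in these windows.
Cyp2b1: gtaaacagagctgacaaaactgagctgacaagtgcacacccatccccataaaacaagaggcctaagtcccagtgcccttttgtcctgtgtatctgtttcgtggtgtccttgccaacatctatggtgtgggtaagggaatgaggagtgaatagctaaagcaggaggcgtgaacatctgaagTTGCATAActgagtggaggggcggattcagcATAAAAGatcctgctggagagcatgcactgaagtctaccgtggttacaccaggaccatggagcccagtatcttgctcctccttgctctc
Cyp2b2: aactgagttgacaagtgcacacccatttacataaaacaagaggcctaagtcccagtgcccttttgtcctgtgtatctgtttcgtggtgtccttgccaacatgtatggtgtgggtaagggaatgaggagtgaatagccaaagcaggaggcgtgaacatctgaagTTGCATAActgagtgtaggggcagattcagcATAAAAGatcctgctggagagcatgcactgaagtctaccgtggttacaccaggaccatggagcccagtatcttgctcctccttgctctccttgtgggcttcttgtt
Cyp2b3: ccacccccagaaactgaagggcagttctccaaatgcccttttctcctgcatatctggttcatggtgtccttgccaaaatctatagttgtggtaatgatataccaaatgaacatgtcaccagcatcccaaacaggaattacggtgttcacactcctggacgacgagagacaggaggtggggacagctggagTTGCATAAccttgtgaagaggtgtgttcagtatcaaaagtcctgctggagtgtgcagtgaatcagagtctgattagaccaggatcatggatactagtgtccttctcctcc

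The Cyp2b1 and Cyp2b2 windows were 97.2% identical, with 8 mismatches and no gap over 283 aligned bases. The Cyp2b3 window was 60.6% identical to that of Cyp2b1 and 59.3% identical to that of Cyp2b2. TTGCATAA stood at bases 181 to 188 of the Cyp2b1 window, 164 to 171 of the Cyp2b2 window and 191 to 198 of the Cyp2b3 window, counted from 1 at the 5′ end. ATAAAAG stood at bases 212 to 218 for Cyp2b1 and 195 to 201 for Cyp2b2, and had no match in the Cyp2b3 window. Among 33469 rat promoter windows of the same length, 0.863% held TTGCATAA and 5.69% held ATAAAAG on either strand. The half-site AGGTCA, the kind of element nuclear receptors bind, had no match in the windows of Cyp2b1, Cyp2b2 or Cyp2b3. It was found at bases 130 to 135 for Cyp2b12 and 96 to 101 for Cyp2b21. Cyp2b14 and Cyp2b15, which have no probe set here, held it at bases 84 to 89. That makes 4 of 7 Cyp2b windows searched, against 16.2% of all windows. A match describes the letters of a window only, and the distal enhancer that CAR is known to bind lies outside these windows.

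The probe set annotated to both Cyp2b1 and Cyp2b2 was higher in every treated liver, by about 1.8 times, but its difference did not pass the threshold over all probe sets. No probe set on the array carried Cyp2b1 or Cyp2b2 alone, so the 2 genes, which encode closely related drug-inducible enzymes, are read here as 1 value. The deposited signals are linear values in arbitrary units. Signals of this probe set were 5310, 4420 and 4964 in momfluorothrin replicates 1 to 3, against 3527, 2573 and 2177 in control replicates 1 to 3. The lowest treated liver lay above the highest control liver, and the control livers were the more spread out, with control replicate 1 the highest of them. The means were 4898 ± 449 in momfluorothrin livers and 2759 ± 694 in control livers (SD, n = 3 each). The SD was 9.17% of the mean in momfluorothrin livers and 25.1% in control livers.

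On the log2 scale the difference was 0.85 ± 0.16 (SE), a 1.81-fold change with a 95% interval of 1.41 to 2.32. Its unadjusted p was 0.000478 and its adjusted p was 0.107 in limma, against a threshold of 0.05 on the adjusted p over all 15778 probe sets kept for testing. Of these probe sets 27 passed (0.171%), 21 of them upward (0.133%), and no Cyp2b probe set was among them. Only 133 probe sets (0.843%) had a larger log2 difference and 69 (0.437%) a smaller p. Groups that do not overlap were more common, since all treated arrays lay above all control arrays for 1167 probe sets (7.4%).

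The side of the threshold on which Cyp2b1/Cyp2b2 fell rested on 1 control animal and on whether arrays were centred on their medians. Without control replicate 1 the log2 difference was 1.05 ± 0.11 and the adjusted p in limma 0.0227, in a fit where 27 of 15402 probe sets passed (0.175%). Leaving out any other single array gave differences of 0.70 to 0.93 and adjusted p-values of 0.169 to 0.328 in limma. With each array centred on its median the difference was 1.03 ± 0.19 and the adjusted p in limma 0.0413, in a fit where 70 probe sets passed (0.444%). Median centring raised the median log2 difference of all kept probe sets by 0.17, and relative to that median Cyp2b1/Cyp2b2 stood at 0.89 with and without it. With it 72.8% of kept probe sets had a positive difference, against 43.7% without it. Under quantile normalization the Cyp2b1/Cyp2b2 difference was 0.87 ± 0.16 and did not pass (adjusted p = 0.104 in limma). Array medians were lower in momfluorothrin livers, at 25.9, 26.5 and 23.1, than in control livers, at 27.0, 28.5 and 29.4, and the part of this shift in the call was not tested. In a bulk sample of liver, a change in RNA per cell and a change in the number of expressing cells cannot be told apart.

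**Figure D1:**
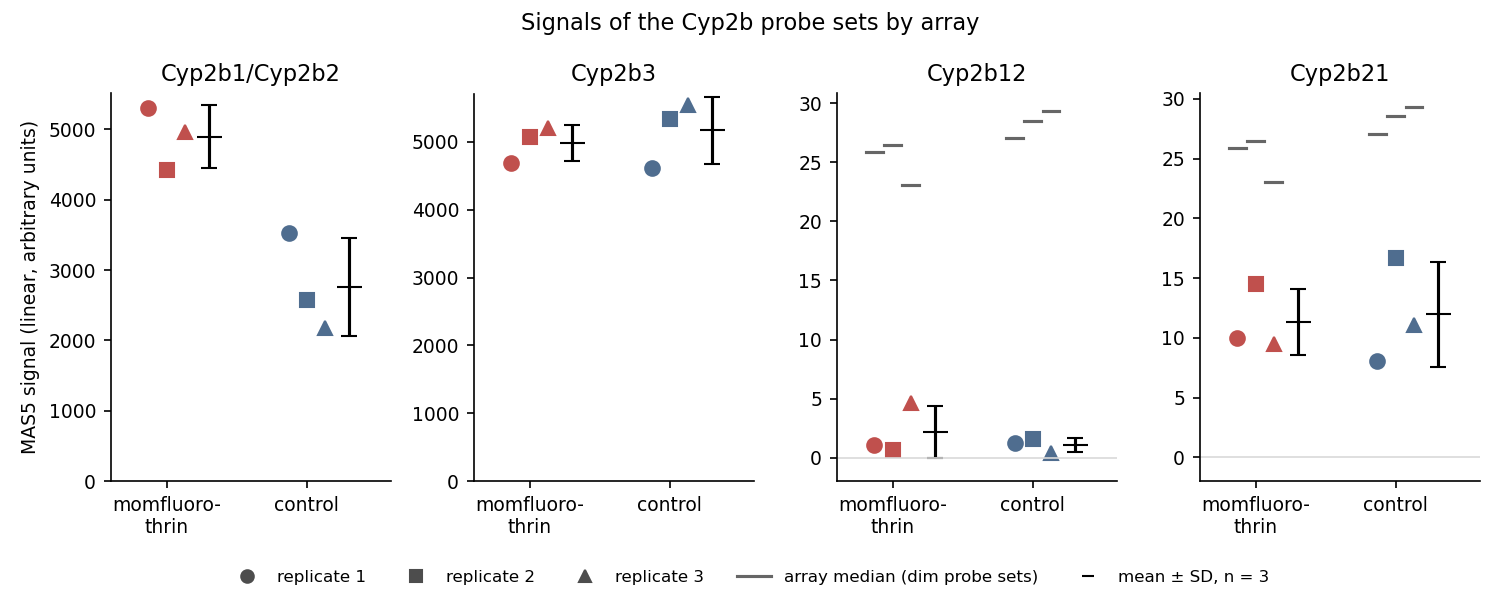
Linear MAS5 signal (arbitrary units, axes from about 0) of each Cyp2b probe set on the 3 momfluorothrin arrays (left) and the 3 control arrays (right), with marker shape giving the replicate number, black bars the mean ± SD (n = 3) and grey dashes the array medians for the dim probe sets. The Cyp2b1/Cyp2b2 signals of 4420 to 5310 in momfluorothrin livers lie above the 2177 to 3527 of control livers, Cyp2b3 overlaps, and Cyp2b12 and Cyp2b21 stay under the array median on every array.

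Cyp2b3, which encodes a Cyp2b enzyme known in rat liver as not responsive to phenobarbital, did not differ beyond its spread. Its signals were 4682, 5068 and 5201 in momfluorothrin replicates 1 to 3, against 4613, 5342 and 5550 in control replicates 1 to 3. The groups overlapped, with control livers at both ends of the range. The means were 4984 ± 269 in momfluorothrin livers and 5168 ± 492 in control livers (SD, n = 3 each). The log2 difference was -0.05 ± 0.09 (SE), with a 95% interval of -0.25 to 0.15, and the adjusted p was 0.854 in limma. The upper end of that interval is a 1.11-fold change, so a rise in signal of the size measured for Cyp2b1/Cyp2b2 lies outside it. The interval covers spread between arrays, and how the signal of this bright probe set responds to RNA was not tested. The sign of this small difference turned under median centring, to 0.12, and without control replicate 3, to 0.0042. In each group the animal with the highest Cyp2b1/Cyp2b2 signal was the one with the lowest Cyp2b3 signal (replicate 1). The 2 probe sets had a Pearson correlation of -0.63 over the 6 arrays, and of -0.91 after each group's mean was subtracted. Both values are given as a description of these arrays.

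Cyp2b12 and Cyp2b21, which rats are known to express mainly outside the liver, were dim in both groups. Dim means that none of a group's 3 arrays had a signal above its array median. Cyp2b12 had signals of 1.06, 0.671 and 4.66 in momfluorothrin livers, against 1.25, 1.59 and 0.381 in control livers. Cyp2b21 had signals of 9.99, 14.5 and 9.51 in momfluorothrin livers, against 8.10, 16.7 and 11.1 in control livers. Both pairs of groups overlapped, and momfluorothrin replicate 3 was the highest array for Cyp2b12. Neither passed the filter on low signals, and no fold is given where both groups are dim. In a limma fit of all 31042 probe sets without a filter, in which 21 passed (0.0677%), the adjusted p was 0.851 for Cyp2b12 and 0.986 for Cyp2b21. Their 95% intervals on the log2 scale were wide there, -1.53 to 2.95 and -1.11 to 1.03, so a change as large as that of Cyp2b1/Cyp2b2 was not detectable. Of the 4 Cyp2b probe sets, then, 2 were tested in the filtered fit and neither passed in either direction.

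Ratios within each array, which do not depend on the scaling between arrays, were used to set the change of Cyp2b1/Cyp2b2 against that of other genes. The log2 ratio of Cyp2b1/Cyp2b2 to Cyp2b3 was 0.18, -0.20 and -0.07 in momfluorothrin replicates 1 to 3 and -0.39, -1.05 and -1.35 in control replicates 1 to 3. All treated arrays lay above all control arrays, and the mean ratio was higher by 0.90 ± 0.31 (SE) in momfluorothrin livers. The exact permutation test (2-sided, 3 arrays against 3) gave p = 0.1, the smallest that this design allows, and 0.117 after adjustment over the 7 ratios tested. The ratio values rank no gene above another, since each probe set has its own response to RNA.

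Ratios to 2 other P450 genes of liver and to the P450 reductase were also higher in momfluorothrin livers. With 3 arrays against 3, no ratio could pass the threshold in the permutation test. The Cyp2b1/Cyp2b2 ratio to Cyp3a23-3a1, the Cyp3a gene known for induction through PXR, was higher by 1.03 ± 0.21 on the log2 scale in momfluorothrin livers. Its ratio to Cyp2c11, the P450 of adult male rat liver that growth hormone controls, was higher by 0.99 ± 0.24 (SE, n = 3 each, exact permutation p = 0.1 for both). In both cases all 3 treated arrays lay above all 3 control arrays. The ratio to Por, the reductase that passes electrons to P450 enzymes, was higher by 0.77 ± 0.36, with 2 of 3 treated arrays above every control array (exact permutation p = 0.2), and by 0.48 without control replicate 2. Not every P450 gene differed less than Cyp2b1/Cyp2b2. Cyp2c12, named after its values were seen, stood at 0.88 ± 0.42 on the log2 scale (SE, adjusted p = 0.468 in limma) with overlapping groups. Cyp2j4, described further on, differed less than Cyp2b1/Cyp2b2, at 0.72 ± 0.11.

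Against 3 other genes that rose, Ces2c, Ugt2b1 and Abcc3, the ratio was lower in momfluorothrin livers. It was lower by 1.11 on the log2 scale relative to the carboxylesterase Ces2c (difference -1.11 ± 0.26, SE) and by 0.79 relative to the glucuronosyltransferase Ugt2b1 (-0.79 ± 0.17). For both, all 3 treated arrays lay below all 3 control arrays (exact permutation p = 0.1). All 3 genes come from a list chosen with earlier results of these data known, so lower ratios to them are a description only. Abcc3, which encodes a transporter that exports conjugates and bile salts into blood, was dim in control livers, so the ratio to it has only a bound. With Abcc3 set to the array median where it was dimmer, the ratio was lower by at least 1.13 (difference -1.13).

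**Figure D2:**
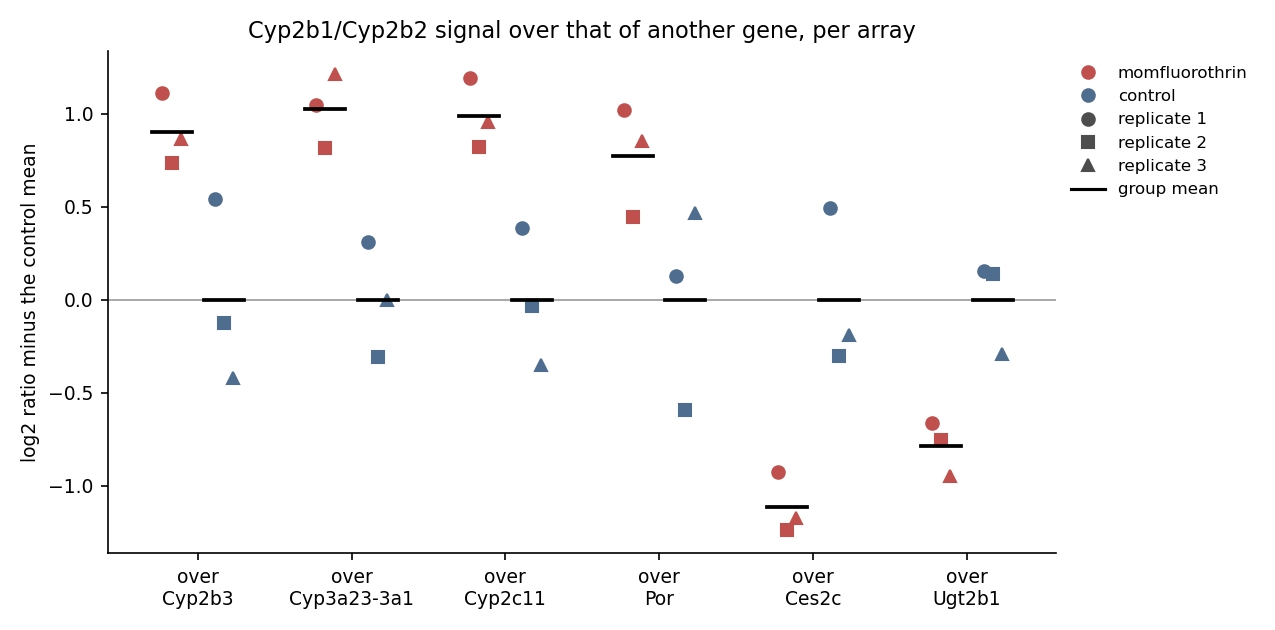
Log2 ratio of the Cyp2b1/Cyp2b2 signal to that of another gene on each array, minus the mean of the control arrays (vertical axis), for 3 momfluorothrin arrays (red, left in each pair) and 3 control arrays (blue), with black lines at the group means. The ratio stands 0.90 higher over Cyp2b3 and 1.03 higher over Cyp3a23-3a1 in momfluorothrin livers, and 1.11 lower over Ces2c.

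Among other known targets of CAR and PXR, 7 genes of conjugation, transport, hydrolysis and aldehyde metabolism rose, and every P450 gene tested from the list was among the 14 that did not pass. Of 27 genes listed, 22 had a probe set of their own and 21 were tested, each by its brightest kept probe set. In limma 7 rose and 0 fell, against 18 genes higher (0.196%) and 2 lower (0.0217%) of all 9200 genes tested. The list was chosen with earlier results of these data known, so the gap between these shares is a description only. Membership rests on prior knowledge, and which regulator acted on these genes here was not tested. Abcc3, which is among the 7, passed the filter on low signals through its momfluorothrin arrays alone. The median log2 difference was 0.07 over the list and -0.01 over all genes. The 7 were Abcc3, Ces2c, Akr7a3, Ugt2b1, Aldh1a1, Ephx1 and Gstm1, the last 3 encoding a retinaldehyde dehydrogenase, the microsomal epoxide hydrolase and a glutathione transferase. Of the 14 that did not pass, Gsta3, named after its values were seen, had the largest difference. It had signals of 480, 684 and 787 in momfluorothrin livers, against 136, 143 and 38.6 in control livers. Its log2 difference was 2.81 ± 0.45 (SE, adjusted p = 0.0636 in limma).

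Ces2c had signals of 976, 1008 and 1081 in momfluorothrin livers, against 243, 306 and 240 in control livers. It rose by 1.97 ± 0.11 on the log2 scale (SE, adjusted p = 0.000591 in limma). Ugt2b1 had 4436, 3931 and 5050 in momfluorothrin livers, against 1676, 1234 and 1408 in control livers. It rose by 1.64 ± 0.13 on that scale (SE, adjusted p = 0.00202 in limma). Abcc3 had 114, 122 and 100 in momfluorothrin livers, against 2.87, 3.05 and 2.99 in control livers, which is at least 3.94-fold higher when the control signals are set to the array medians. In these 3 genes the gap between the groups was wide relative to the spread within them. The log2 difference of Cyp2b1/Cyp2b2, 0.85 ± 0.16, was larger than that of Gstm1, 0.69 ± 0.07 (adjusted p = 0.0109 in limma), which passed with a smaller SE.

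None of the Cyp3a or Cyp2c genes of the list passed. Cyp3a23-3a1 had signals of 6864, 6720 and 5718 in momfluorothrin livers, against 7596, 8521 and 5835 in control livers, and the groups overlapped. It stood at -0.17 ± 0.14 on the log2 scale (SE, adjusted p = 0.657 in limma), which became 0.0001 under median centring, -0.33 without control replicate 3, -0.05 without control replicate 2 and -0.09 without momfluorothrin replicate 3. Cyp2c11 had 6316, 6793 and 6962 in momfluorothrin livers, against 7346, 7162 and 7525 in control livers. Its groups did not overlap, as was so downward for 10.4% of kept probe sets, and its difference of -0.14 ± 0.07 (adjusted p = 0.474 in limma) turned to 0.04 under median centring. Without momfluorothrin replicate 2, or without replicate 3, 3 genes of the list passed (Ces2c, Akr7a3 and Ugt2b1). Abcc3 did not pass the filter in the fits that left out a treated array, and so was not tested there. When limma's variance model left out the intensity trend, 2 genes of the list passed.

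**Figure D3:**
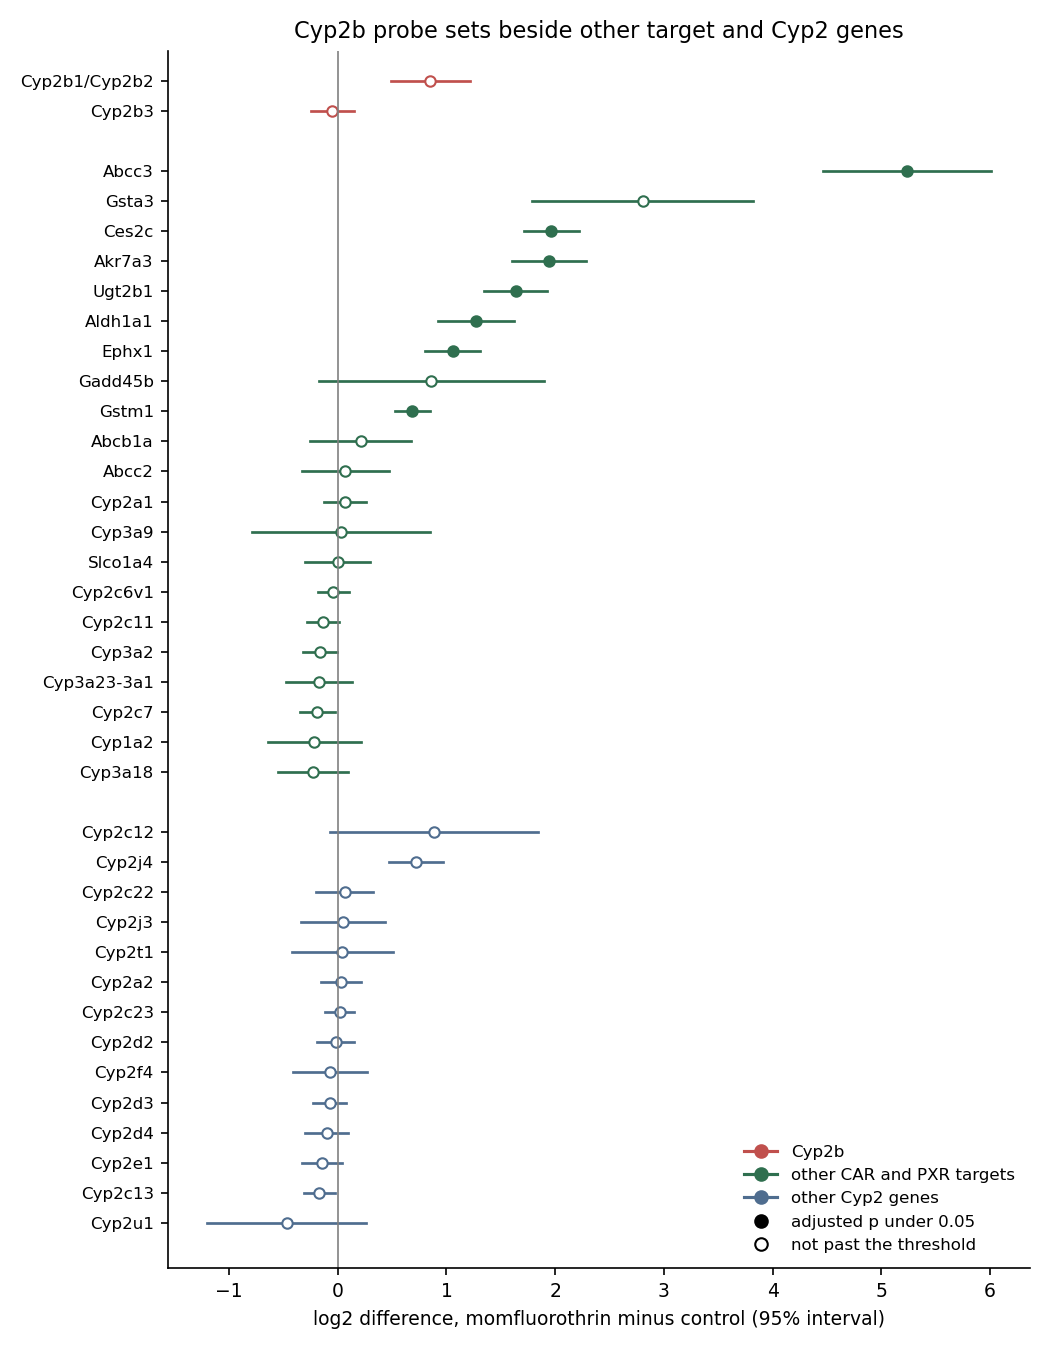
Log2 difference, momfluorothrin minus control, with its 95% interval for the 2 Cyp2b probe sets tested (red), other CAR and PXR target genes (green) and other Cyp2 genes (blue), with filled points past the adjusted threshold of 0.05. Cyp2b1/Cyp2b2 at 0.85 lies above zero with an open point, Cyp2b3 at -0.05 sits at zero, and the filled points are the 7 target genes that rose. The measured value of Abcc3 rests on dim control signals.

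Across the rest of the Cyp2 family, which metabolises drugs, steroids and fatty acids, no gene passed. Of 22 Cyp2 genes outside Cyp2b, 18 were tested, 8 had a positive difference and the median log2 difference was -0.03 (16 positive and a median of 0.14 under median centring). Cyp2j4, a member of a subfamily that oxidises arachidonic acid, came closest to the threshold. It had signals of 1633, 2076 and 2002 in momfluorothrin livers, against 1081, 1258 and 1120 in control livers. Its groups did not overlap, as was so upward for 7.4% of kept probe sets. Its log2 difference was 0.72 ± 0.11 (SE, adjusted p = 0.053 in limma), and it passed under median centring (0.0284), with a pseudocount of 16 (0.0454) and without momfluorothrin replicate 1 (0.0326). Cyp2c7, a P450 that hydroxylates retinoids, stood at -0.19 ± 0.07 (adjusted p = 0.371 in limma).

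No P450 gene that neighbours the Cyp2b genes in the same chromosomal run passed, and the median log2 difference of those tested was 0.04, or 0.21 under median centring, where all 4 were positive and the median of all genes was 0.16. All 7 such genes of the run had a probe set, 4 were tested and 3 (Cyp2a3, Cyp2g1 and Cyp2s1) did not pass the filter on low signals. The differences ran from -0.07 for Cyp2f4, a P450 known from lung, to 0.07 for Cyp2a1, a steroid 7-alpha-hydroxylase of liver. Their SEs were 0.15 and 0.08 and their adjusted p-values 0.888 and 0.794 in limma. Cyp2a1 had signals of 2297, 1919 and 2111 in momfluorothrin livers, against 2028, 2052 and 1946 in control livers, so the groups overlapped. Its difference was 0.24 under median centring, 0.003 without momfluorothrin replicate 1, 0.13 without momfluorothrin replicate 2 and 0.04 without control replicate 3. Cyp2f4 turned to a positive difference under median centring (0.10) and without momfluorothrin replicate 1 (0.11).

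The receptor and the proteins it works with gave no call. Of 20 genes for CAR and its partners, 18 were tested and 0 passed in either direction in limma; at an unadjusted p under 0.05, 2 were higher and 1 lower, against 6.05% and 6.18% of all genes. Nr1i3, the gene for CAR itself, had signals of 350, 359 and 405 in momfluorothrin livers, against 308, 344 and 249 in control livers. Its groups did not overlap, as was so upward for 7.4% of kept probe sets. The log2 difference of Nr1i3 was 0.32 ± 0.13 (SE, adjusted p = 0.421 in limma). That difference was 0.19 without control replicate 3 and 0.49 under median centring. Ppp2r1a, a scaffold subunit of the phosphatase PP2A that acts on CAR, stood at 0.31 ± 0.09, and Hsp90ab1, a chaperone of the cytoplasmic CAR complex, at -0.20 ± 0.07 (adjusted p = 0.285 and 0.34 in limma). An mRNA level does not report where the receptor protein is in the cell.

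Genes that supply P450 enzymes with electrons and heme also gave no call. Of 15 genes listed, 14 were tested, 12 had a positive difference and 0 passed in limma, with 2 higher and 1 lower at an unadjusted p under 0.05 (6.05% and 6.18% of all genes). Of all genes 47.5% had a positive difference. The median log2 difference was 0.12 over the list and -0.01 over all genes. Por had signals of 765, 949 and 801 in momfluorothrin livers, against 943, 1131 and 461 in control livers. Control replicate 3 was the lowest array, and the difference of 0.08 ± 0.28 (SE, adjusted p = 0.933 in limma) had an interval of -0.56 to 0.72, wide enough to hold a change of either sign. It turned to -0.31 without control replicate 3 and to -0.01 without momfluorothrin replicate 2, and was 0.34, 0.21 and 0.14 without control replicate 2, control replicate 1 and momfluorothrin replicate 1. Blvra, which turns biliverdin from heme into bilirubin, stood at 0.52 ± 0.13, and Cyb5r3, a cytochrome b5 reductase, at 0.20 ± 0.07 (adjusted p = 0.219 and 0.378 in limma).

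The genes whose log2 signal over the 6 arrays was most like that of Cyp2b1/Cyp2b2 were Tmem97, Nlrx1, Aldh4a1, Col13a1 and the gene listed as mrpl24, with Pearson correlations of 0.996, 0.989, 0.985, 0.984 and 0.983 among 9200 genes. After each group's mean was subtracted the correlations were 0.99, 0.95, 0.925, 0.996 and 0.917. Tmem97, a membrane protein that binds sterols, had signals of 355, 318 and 329 in momfluorothrin livers, against 259, 218 and 195 in control livers. In it too replicate 1 was the highest animal of each group. None of the 5 genes passed the threshold, with log2 differences of 0.19 to 0.65 and adjusted p-values of 0.141 to 0.472 in limma. Genes with larger rises ranked lower by this measure, with Ugt2b1 at 0.93 (rank 83), Abcc3 at 0.88 (rank 197) and Ces2c at 0.88 (rank 222), and Nr1i3 stood at 0.78 (rank 592). The 6 arrays form 2 groups and share their scaling, so these correlations describe likeness only.

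**Figure D4:**
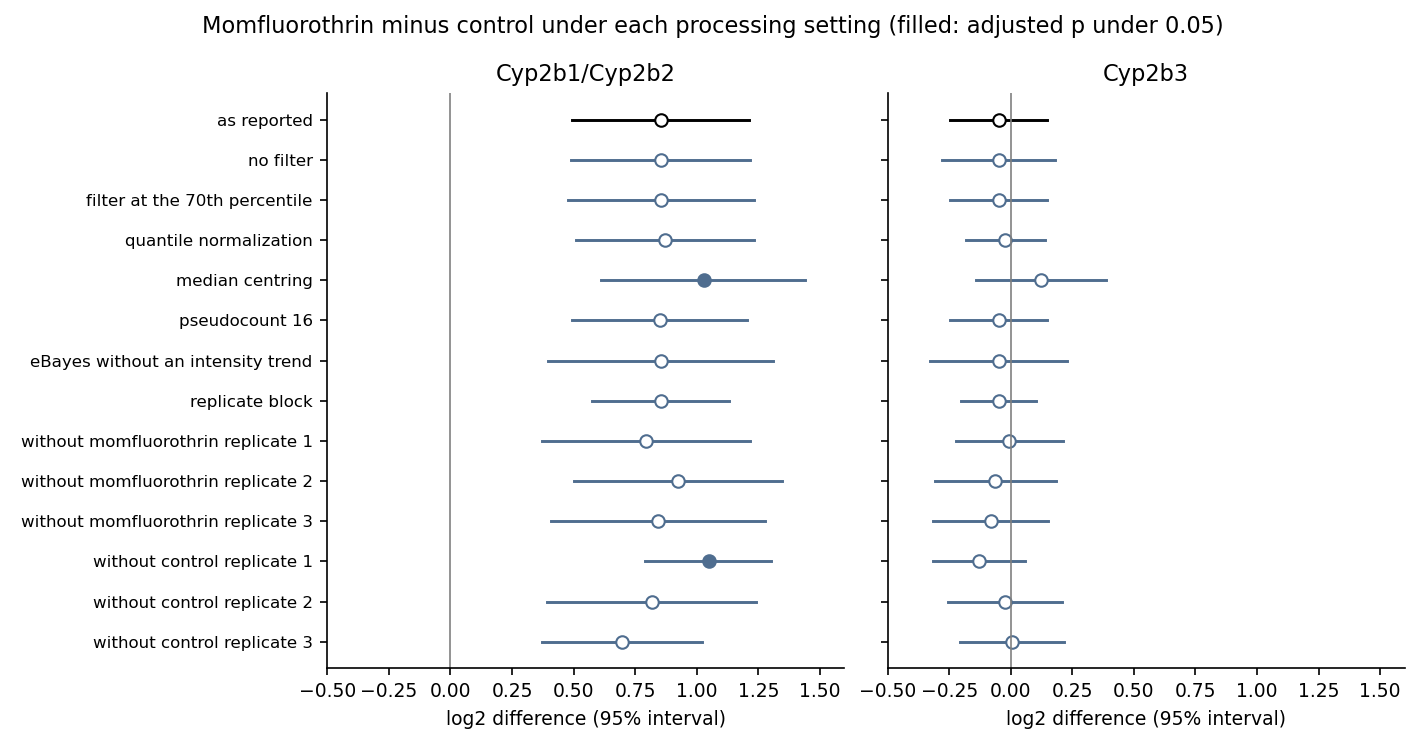
Log2 difference, momfluorothrin minus control, with its 95% interval (horizontal axes) for Cyp2b1/Cyp2b2 (left) and Cyp2b3 (right) under each processing setting, with filled points where the adjusted p in limma was under 0.05. Every interval of Cyp2b1/Cyp2b2 lies above zero, and its point is filled under median centring (1.03) and without control replicate 1 (1.05), whereas every interval of Cyp2b3 spans zero.

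Markers of zonation and cell type were measured beside these values. Pericentral genes, which mark the zone where CAR activators are known to induce Cyp2b, had a median log2 difference of -0.18 over 10 tested genes. Of these Aldh1a1, already counted among the CAR and PXR targets above, rose (1.27 ± 0.15 SE, adjusted p = 0.0186 in limma). At an unadjusted p under 0.05, 2 of the 10 were higher and 3 lower, against 6.05% and 6.18% of all genes. The 3 lower ones, named after their values were seen, were Oat at -0.56 ± 0.11, Gulo at -0.43 ± 0.09 and Axin2 at -0.55 ± 0.17 (adjusted p = 0.136, 0.136 and 0.281 in limma). Each had all treated arrays below all control arrays, as did 10.4% of kept probe sets. The higher one besides Aldh1a1 was Cyp7a1, at 0.91 ± 0.39 (SE, adjusted p = 0.429 in limma), with overlapping groups. Periportal genes had a median of -0.11 over 11, with Sds, a serine dehydratase, at -0.77 ± 0.26 and Cps1, of the urea cycle, at -0.20 ± 0.07 (adjusted p = 0.332 and 0.338 in limma). Median centring moved these medians to -0.01 and 0.07. All 7 tested hepatocyte markers exceeded the array median on all 6 arrays, and 0 of 7 had a positive difference (5 of 7 under median centring). Their summed signal ran from 47544 to 54065 in momfluorothrin livers and from 54326 to 60223 in control livers, and its part in the Cyp2b values was not tested. The Cyp2b1/Cyp2b2 ratio to Cyp2c11, 1 of these markers, is given above. No marker of Kupffer, endothelial, stellate, bile duct, blood or pancreatic cells passed, and of the bile duct markers Krt19 and Krt7 were dim while Epcam stood at 0.63 ± 0.16 (SE, adjusted p = 0.22 in limma).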

How the data were processed

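The authors deposited linear probe set intensities on a linear scale. MAS5 is named in the submitters' processing notes, with no version or settings. Each array had a trimmed mean of about 100 (2% left out at each end), so no further scaling was applied. No detection calls were used here. Of 31099 probe sets, 57 Affymetrix controls were left out, and 15778 with a signal over the array median in 3 or more of the 6 arrays were kept. Symbols are those of GEO's platform annotation (20826 probe sets with 1 symbol, 436 with several, 9780 with none), and a gene was represented by its brightest kept probe set. Log2 signals, with no pseudocount, were compared with limma 3.58.1 in R 4.3.3 (eBayes with an intensity trend, 2-sided, Benjamini-Hochberg over all kept probe sets). Ratios were tested by exact permutation over arrays in scipy 1.17.1. Promoter windows were aligned with Biopython 1.88.

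Gene lists described by counts held CAR and PXR targets, CAR partners, P450 electron and heme supply, neighbouring P450 genes, other Cyp2 genes, zonation and cell type markers. The rule for naming genes took each Cyp2b probe set, list members past the threshold (otherwise the 2 with the smallest p), 7 genes whatever their values, and the 5 genes most like Cyp2b1/Cyp2b2. The members and lists were chosen with earlier results of these data known. The alternatives changed the filter, scaling, pseudocount, variance model, probe set of a gene and replicate block, and left out each array in turn. Animals are numbered as biological replicates per the labels, but same-numbered arrays did not deviate together (correlations of -0.10, 0.10 and -0.06), so no block was used. The number of arrays limits the precision, and labels give no hybridisation batch.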

Additional observations from a re-analysis of the deposited data

How the results depend on the processing

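Under the 13 alternatives the Cyp2b1/Cyp2b2 difference stayed positive (0.70 to 1.05, adjusted p 0.0227 to 0.328 in limma), and it passed the threshold in 2 of them, median centring (1.03) and without control replicate 1 (1.05). With a replicate block, where equal numbers are not known to pair animals, its adjusted p in limma was 0.0897 at a difference of 0.85, and the ratio over Cyp2b3 had a sign-flip p of 0.25, the smallest that 3 pairs allow (exact). Cyp2b3 passed in none of the 13; its sign turned under median centring (0.1234) and ranged from -0.13 to 0.0042 when single arrays were left out. The 7 ratios kept their direction under every alternative run. Among other genes, the sign turned under median centring for Cyp2c11 (0.0373), Cyp2f4 (0.1043) and Cyp3a23-3a1 (0.0001), and, leaving out 1 array, for Cyp2f4 (-0.19 to 0.11) and Por (-0.31 to 0.34). Against 21 probe sets higher and 6 lower, median centring gave 65 higher, eBayes without an intensity trend 3 and 0, the replicate block 10 higher, and no filter 3 lower. Leaving out single arrays gave 3 to 24 higher and 2 to 5 lower, with the fewest without momfluorothrin replicate 2. CAR and PXR targets that rose numbered 7, against 2 without an intensity trend and 3 to 8 without single arrays. The cause of these moves was not tested. Of the 4 Cyp2b probe sets, 2 were too dim to measure a change.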
